A study of Mus musculus with 6 samples.

Results

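The tryptases and the mast cell carboxypeptidase were taken as the 5 genes Cpa3, Tpsb2, Tpsab1, Tpsg1 and Prss34, matched by symbol among the 55809 genes counted in mast cells of fetal mouse skin. All 5 passed the filter on low counts that left 16716 genes for testing. In the prenatal stress group, C57BL6J dams aged 8 to 10 weeks were restrained in tubes under bright light for 30 minutes, 3 times a day, over the last part of gestation, and control dams stayed undisturbed. The stress ran between embryonic days 13.5 and 18.5 in the design text and between days 13 and 18 in the protocol. Fetal skin was taken on embryonic day 18.5 from both sexes, digested for 45 minutes and sorted for CD45+ cells that lacked F4/80 and CD64 and carried CD117 (KIT, the stem cell factor receptor) and ST2 (the interleukin 33 receptor). There were 3 prenatal stress and 3 control libraries, each made from a pool of 4 fetuses, so that 12 mice stood behind each group. Since the labels tie no pool to a dam or litter, p-values describe the spread between pools only.

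Mast cells pack their granules with proteases bound to the proteoglycan serglycin, and release them when an antigen crosslinks IgE on the high-affinity receptor. Tryptases are serine proteases that cut after lysine or arginine and act largely outside the cell, while carboxypeptidase A3 is a zinc protease that trims single residues from the C-terminal end of peptides. In mice, Tpsb2 encodes mMCP-6 and Tpsab1 encodes mMCP-7, tryptases of the connective tissue type of mast cell that skin holds. Tpsg1 encodes the membrane-anchored transmembrane tryptase, Prss34 encodes mMCP-11, known chiefly from basophils, and Cpa3 encodes the carboxypeptidase that is stored together with the chymase mMCP-5. C57BL/6 mice are known to lack mMCP-7 protein because of a splice-site change in Tpsab1, so its transcript level does not stand for protein in this strain.

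The libraries held 51710555, 57032963 and 57806119 gene counts in stress replicates 1 to 3, against 74735139, 54616570 and 55792766 in control replicates 1 to 3. Levels are given in CPM, counts scaled to a common library size after TMM correction, and differences as log2 fold changes of prenatal stress over control with their standard error. The receptor genes used in the sort were detected in all 6 libraries, and so were transcripts of the excluded F4/80 (Adgre1, 266, 244 and 404 CPM in stress libraries, 380, 438 and 410 CPM in controls). Stress replicate 3 stood apart from the other stress libraries. The 16 macrophage marker genes summed to 5630, 5173 and 7994 CPM in stress replicates 1 to 3 and to 6924, 7868 and 7814 CPM in the controls, so that stress replicates 1 and 2 lay below all controls and stress replicate 3 above them. One of these markers passed the test on each side (Cd68 higher, Cx3cr1 lower), and their median log2 fold change was -0.34. The defining macrophage genes were not at 0 in any library. All 5 melanocyte markers rose, from a low level, with sums of 28.5 to 69.8 CPM in stress libraries against 13.9 to 19.5 CPM in controls. Over all tested genes, 4.34% were called higher and 1.85% lower. Of 6 tested lymphoid markers, Il7r, the interleukin 7 receptor gene, was called higher (48.8 to 58.1 CPM in stress libraries, 18.1 to 26.2 CPM in controls) and Trbc1, a T cell receptor constant region gene, lower (0.216 to 0.482 CPM in stress libraries, 1.00 to 8.93 CPM in controls). Which cells these macrophage, melanocyte and lymphoid transcripts came from was not tested. Their share in the results below was not tested beyond the values given with each of them. In bulk samples fewer cells of a type and less RNA per cell cannot be told apart.

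Cpa3 had the highest mean CPM of all genes, a ranking not scaled to exon length, and rose in prenatally stressed fetuses. Its level was 34207, 41409 and 32989 CPM in stress replicates 1 to 3, against 26215, 21723 and 26270 CPM in control replicates 1 to 3. Every stress library lay above every control, with means of 36202 ± 4551 CPM and 24736 ± 2610 CPM (SD, n = 3 each). The log2 fold change was 0.55 ± 0.11, a 1.46-fold rise with a 95% interval of 1.23 to 1.75 and an edgeR adjusted p of 0.0286. Cpa3 was the only one of the 5 genes to pass the edgeR test, against a background of 4.34% of tested genes called higher and 1.85% called lower. The call was narrow, since it held without stress replicate 3 (adjusted p = 0.00712) and was lost in edgeR when any other single library was left out, with adjusted p-values of 0.0575 without stress replicate 1, 0.082 without stress replicate 2, and 0.0689, 0.0864 and 0.076 without control replicates 1, 2 and 3. With the mean macrophage marker level as a covariate the log2 fold change was 0.41 (edgeR adjusted p = 0.0923).

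**Figure D1:**
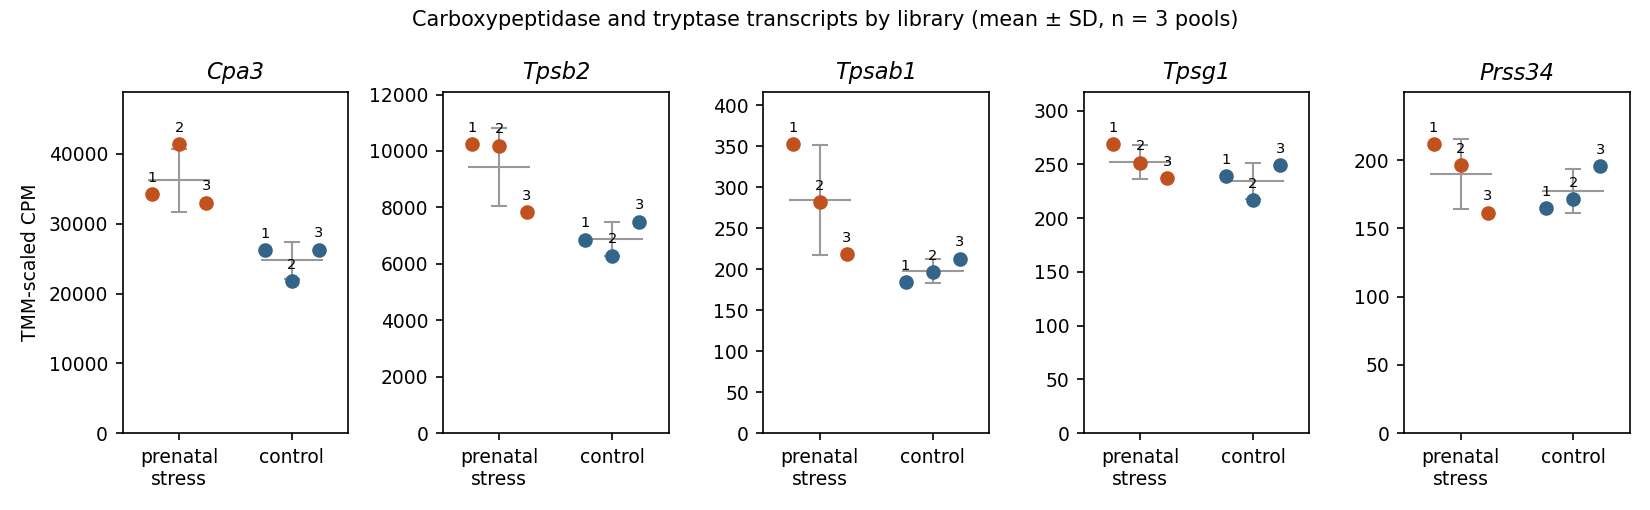
Levels of the 5 transcripts in TMM-scaled CPM on linear axes that start at 0, one panel per gene, with a point for each library numbered by replicate and a grey bar for mean ± SD of 3 pools. Cpa3, Tpsb2 and Tpsab1 have all stress points above all control points, while Tpsg1 and Prss34 overlap, and stress replicate 3 is the lowest stress point in every panel.

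Tpsb2, the main soluble tryptase, had rank 6 among all genes by mean CPM. It reached 10245, 10182 and 7820 CPM in stress libraries, against 6861, 6282 and 7493 CPM in controls. The groups did not overlap, but stress replicate 3 lay only slightly above control replicate 3. The log2 fold change was 0.45 ± 0.12 (1.37-fold, 95% interval 1.14 to 1.64), with an unadjusted p of 0.00377 and an edgeR adjusted p of 0.0539. Tpsb2 therefore narrowly missed the threshold of 0.05. It passed in DESeq2 (adjusted p = 0.00155) and in edgeR without stress replicate 3 (adjusted p = 0.00328). With the macrophage covariate its log2 fold change was 0.27 (edgeR adjusted p = 0.223).

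Tpsab1, the neighbouring tryptase gene, had 353, 282 and 218 CPM in stress libraries, against 184, 196 and 213 CPM in controls. Again no stress library was below a control, and stress replicate 3 was within a few CPM of control replicate 3. The difference was 0.52 ± 0.15 on the log2 scale (1.44-fold, 95% interval 1.14 to 1.82), close in size to that of Cpa3 but with a wider spread among stress libraries. It had an unadjusted p of 0.00675 and an edgeR adjusted p of 0.0729. DESeq2 called it higher (adjusted p = 0.00444), as did edgeR without stress replicate 3 (adjusted p = 0.00246). The macrophage covariate brought it to 0.32 (edgeR adjusted p = 0.283). RefSeq lists Tpsab1 as a transcribed pseudogene, whereas GENCODE M21 lists it as protein coding.

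The coding sequences of Tpsb2 and Tpsab1 are shown over one stretch of 90 bases because reads of such related genes could be mixed. The sequences come from GENCODE M21 (GRCm38, chromosome 17, coding bases 18 to 107 of Tpsb2 and 120 to 209 of Tpsab1, each 5′ to 3′), and capitals mark the 26 bases that differ.
Tpsb2: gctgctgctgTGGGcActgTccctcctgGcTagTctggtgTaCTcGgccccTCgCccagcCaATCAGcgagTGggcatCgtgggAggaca
Tpsab1: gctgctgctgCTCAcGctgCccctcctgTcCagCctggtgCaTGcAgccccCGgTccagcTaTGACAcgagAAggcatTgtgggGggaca
Over 827 aligned coding bases the pair was 75.7% identical, and its longest identical run was 39 bases. The other tryptase pairs were 64.4% to 67.9% identical. On the transcript strand, no stretch of 50 or of 75 bases of the 5 genes' transcripts occurred in the transcript of another gene. A read of that length with no mismatch and a known strand therefore belongs to 1 of them. Reverse complements were not searched. The read length was not given in the sources used here.

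Tpsg1 and Prss34 passed the threshold under none of the settings run. Tpsg1, the membrane tryptase, had 269, 251 and 237 CPM in stress libraries and 239, 216 and 249 CPM in controls. Its log2 fold change was 0.10 ± 0.07, with an edgeR adjusted p of 0.410, and the interval of its fold ran from 0.958 to 1.21. Prss34 had 212, 196 and 161 CPM in stress libraries and 165, 171 and 195 CPM in controls. The stress and control values interleaved for both genes. The log2 fold change of Prss34 was 0.10 ± 0.10 (edgeR adjusted p = 0.601) and its fold interval ran from 0.908 to 1.26. With library totals in place of TMM factors the sign turned for both, to -0.0084 for Tpsg1 and -0.0145 for Prss34. Of the exon length of Tpsg1, 11.4% is overlapped by Cacna1h, a calcium channel gene. The strand setting of the counting was not given in the sources used here. Depending on it, reads of that stretch could be missing from the Tpsg1 counts or belong to that neighbour.

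Counted together, 3 of the 5 genes had all stress libraries above all controls, a pattern that 16.0% of all tested genes showed. This count holds with TMM scaling, and as plain shares of gene counts Cpa3 alone was separated. The share of Tpsb2 was 0.999%, 0.962% and 0.752% in stress libraries and 0.705%, 0.676% and 0.763% in controls (exact two-sided permutation p = 0.2). The share of Tpsab1 was 0.0344%, 0.0266% and 0.0210% in stress libraries and 0.0189%, 0.0211% and 0.0216% in controls (exact two-sided permutation p = 0.3). In both, stress replicate 3 lay below at least 1 control. DESeq2 called the same 3 genes higher, against 7.56% of tested genes. The median log2 fold change of the 5 genes was 0.45, beside -0.0039 over all genes tested. Each of the 5 had its lowest stress value in stress replicate 3, the library with the highest macrophage marker sum. Across the alternative scalings, filters, tests, covariates and left-out libraries drawn in the plot of settings, Cpa3, Tpsb2 and Tpsab1 kept a positive sign. In the fits without 1 library this sign was close to fixed, since the groups did not overlap in CPM.

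**Figure D2:**
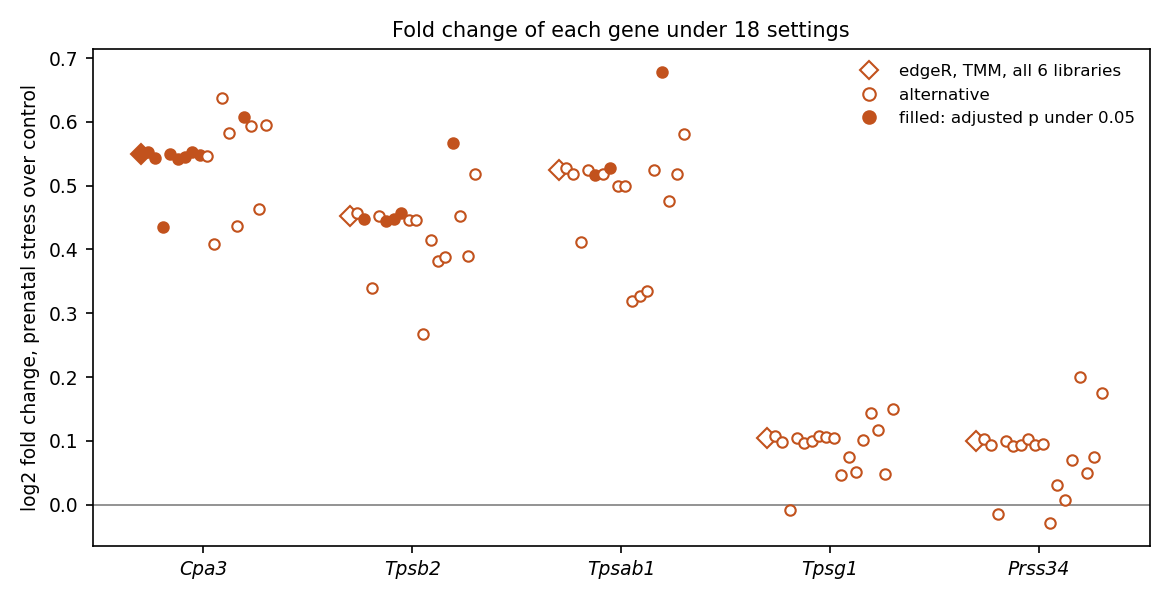
Log2 fold changes of the 5 genes under edgeR with all 6 libraries (diamond) and under each alternative setting (circles), filled where the adjusted p was under 0.05. Cpa3, Tpsb2 and Tpsab1 stay above 0 under every setting drawn, whereas Tpsg1 and Prss34 lie near 0 and cross it in 1 and 2 settings.

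The promoters of the called Cpa3 and of the uncalled Prss34 are shown because GATA2 and MITF are known regulators of mast cell protease genes. RefSeq (GRCm38.p6) windows of 250 bases before to 50 after the gene start were given for 3 of the 5 genes. They are printed 5′ to 3′ on the strand of the gene, with the letters GATAA in capitals.
Cpa3 promoter, chr3:20242132-20242431, minus strand: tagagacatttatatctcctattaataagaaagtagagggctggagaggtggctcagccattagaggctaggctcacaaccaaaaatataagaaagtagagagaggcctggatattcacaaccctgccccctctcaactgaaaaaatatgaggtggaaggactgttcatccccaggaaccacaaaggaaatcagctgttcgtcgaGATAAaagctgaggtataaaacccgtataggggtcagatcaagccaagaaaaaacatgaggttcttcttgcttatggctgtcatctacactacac
Prss34 promoter, chr17:25298144-25298443, plus strand: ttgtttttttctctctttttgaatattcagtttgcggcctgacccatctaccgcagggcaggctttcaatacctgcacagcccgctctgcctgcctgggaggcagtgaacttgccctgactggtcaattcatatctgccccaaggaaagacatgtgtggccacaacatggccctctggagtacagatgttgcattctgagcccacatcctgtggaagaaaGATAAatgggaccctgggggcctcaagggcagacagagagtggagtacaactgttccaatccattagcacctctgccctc
GATAA began 45 bases before the start of Cpa3 and 30 bases before that of Prss34. One of the windows of Tpsg1 (chr17:25369023-25369322, plus strand) held it 92 bases before and 30 bases after the start, and the other (chr17:25370303-25370602) did not hold it. Searched on both strands, GATAA occurred in 25.4% of 32851 RefSeq promoter windows of the same length. CACATG, the letters of an E-box, was found in the Prss34 window alone among these, on the opposite strand 100 bases before the start, and in 14.2% of all windows. TGTGGT, a RUNX motif core, occurred in the Cpa3 window on the opposite strand 73 bases before the start, 3 times in the second Tpsg1 window, and in 16.8% of all windows. The motif was thus found beside a gene that rose and beside genes that were not called, and a match of letters is a description only.

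Levels of different genes were compared per kilobase of exon, in CPM per kb. In stress libraries Cpa3 averaged 23864 ± 3000 and Tpsb2 5907 ± 867, while in controls they averaged 16306 ± 1720 and 4315 ± 380 (SD, n = 3 each). The other 3 genes were far lower, and all lay below Kit, the receptor gene used in the sort. In stress libraries Kit was at 239 ± 24.7 CPM per kb, Tpsg1 at 182 ± 11.5, Prss34 at 156 ± 21.2 and Tpsab1 at 136 ± 32.1. In controls the same order held, with Kit at 204 ± 17.8, Tpsg1 at 169 ± 12.0, Prss34 at 145 ± 13.2 and Tpsab1 at 94.4 ± 6.86. The ranges of Tpsg1 and Prss34 overlapped in both groups. Those of Prss34 and Tpsab1 overlapped in the stress group, where Tpsab1 reached 168 CPM per kb, but not in controls, where Tpsab1 stayed at or under 102 and Prss34 at or above 135. The order of these lower genes rests on exon lengths joined over all transcripts, 2094 bases for Tpsab1, 1389 for Tpsg1 and 1220 for Prss34. In plain CPM, Tpsab1, Tpsg1 and Prss34 averaged 284, 252 and 190 in stress libraries and 198, 235 and 177 in controls.

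**Figure D3:**
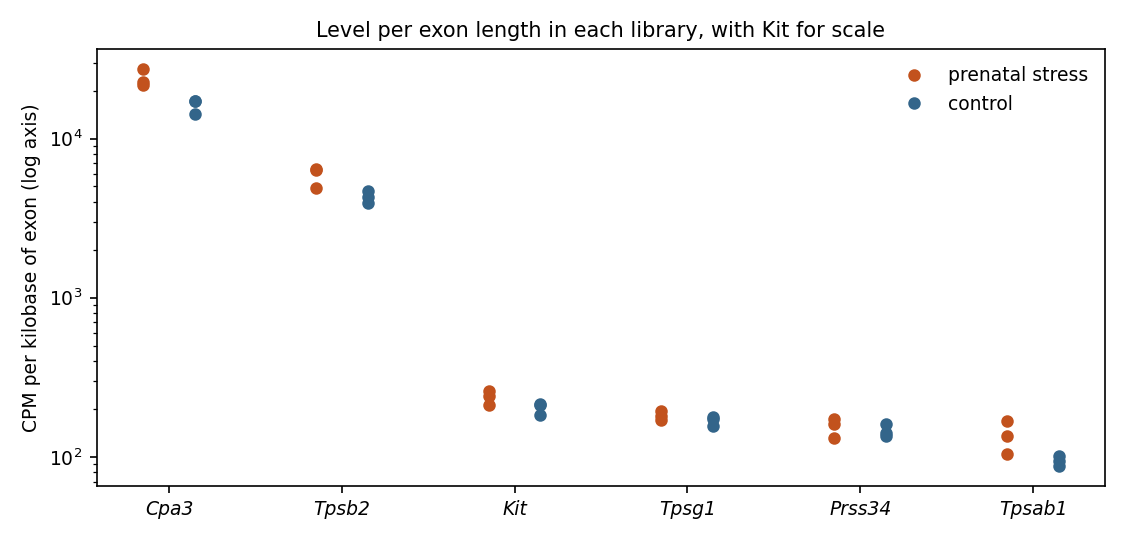
Levels of the 5 protease genes and of Kit in TMM-scaled CPM per kilobase of exon on a log axis, with a point for each library and stress points left of control points. Cpa3 and Tpsb2 lie far above Kit in all 6 libraries, and Tpsg1, Prss34 and Tpsab1 lie below it.

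As a share of all gene counts, the 5 genes held 4.45% ± 0.481 in stress libraries and 3.35% ± 0.234 in controls (SD, n = 3 each). The shares were 4.42%, 4.94% and 3.98% in stress replicates 1 to 3 and 3.46%, 3.08% and 3.50% in control replicates 1 to 3, and the Wilson 95% interval of each library was at most 0.0113 percentage points wide, covering counting error only. The groups did not overlap, and the difference of 1.10 percentage points had an exact two-sided permutation p of 0.1, the smallest that 3 against 3 allows. Most of this share was Cpa3, which made up 78.1% of the 5 genes' counts in stress libraries and 76.7% in controls on average. Tpsb2 made up 20.3% in stress libraries and 21.4% in controls.

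Ratios between genes of the same library do not depend on scaling. Cpa3 counts were 14.7, 19.1 and 17.5 times those of Kit in stress libraries, against 13.6, 13.3 and 13.9 times in controls. Tpsb2 counts were 4.41, 4.71 and 4.14 times those of Kit in stress libraries, against 3.57, 3.84 and 3.96 times in controls. Both ratios were higher in all stress libraries, by 0.32 and by 0.22 on the log2 scale, each with an exact two-sided permutation p of 0.1 and a Benjamini-Hochberg value of 0.2 over 4 ratios. Set against the mean log2 level of the 11 mast cell identity genes other than Kit, the differences turned to -0.26 for Cpa3 and -0.36 for Tpsb2, and those 11 genes include some with larger rises, such as Mrgprb1 (2.51 ± 0.22) and Fcer1a (2.26 ± 0.29).

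The proportion of Tpsb2 to Cpa3 overlapped between the groups. Tpsb2 counts were 30.0%, 24.6% and 23.7% of Cpa3 counts in stress libraries and 26.2%, 28.9% and 28.5% in controls. The log2 ratio differed by -0.10 (exact two-sided permutation p = 0.4, Benjamini-Hochberg 0.533), and the 9 differences between a stress and a control library ran from -0.29 to 0.19. Tpsab1 counts were 3.44%, 2.77% and 2.79% of Tpsb2 counts in stress libraries and 2.68%, 3.13% and 2.84% in controls. Here the difference was 0.05 (exact two-sided permutation p = 0.7), with single differences from -0.18 to 0.36. These spreads leave room for an unequal change in either direction.

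The ratios of Tpsg1 and Prss34 to Tpsb2 were chosen after the values of these genes were seen and are given as a description, with no test. Tpsg1 counts were 2.62%, 2.47% and 3.03% of Tpsb2 counts in stress libraries, against 3.48%, 3.45% and 3.32% in controls. Prss34 counts were 2.07%, 1.93% and 2.06% of Tpsb2 counts in stress libraries, against 2.401%, 2.73% and 2.61% in controls. The differences of -0.34 and -0.35 on the log2 scale restate the fold changes of the single genes given above.

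**Figure D4:**
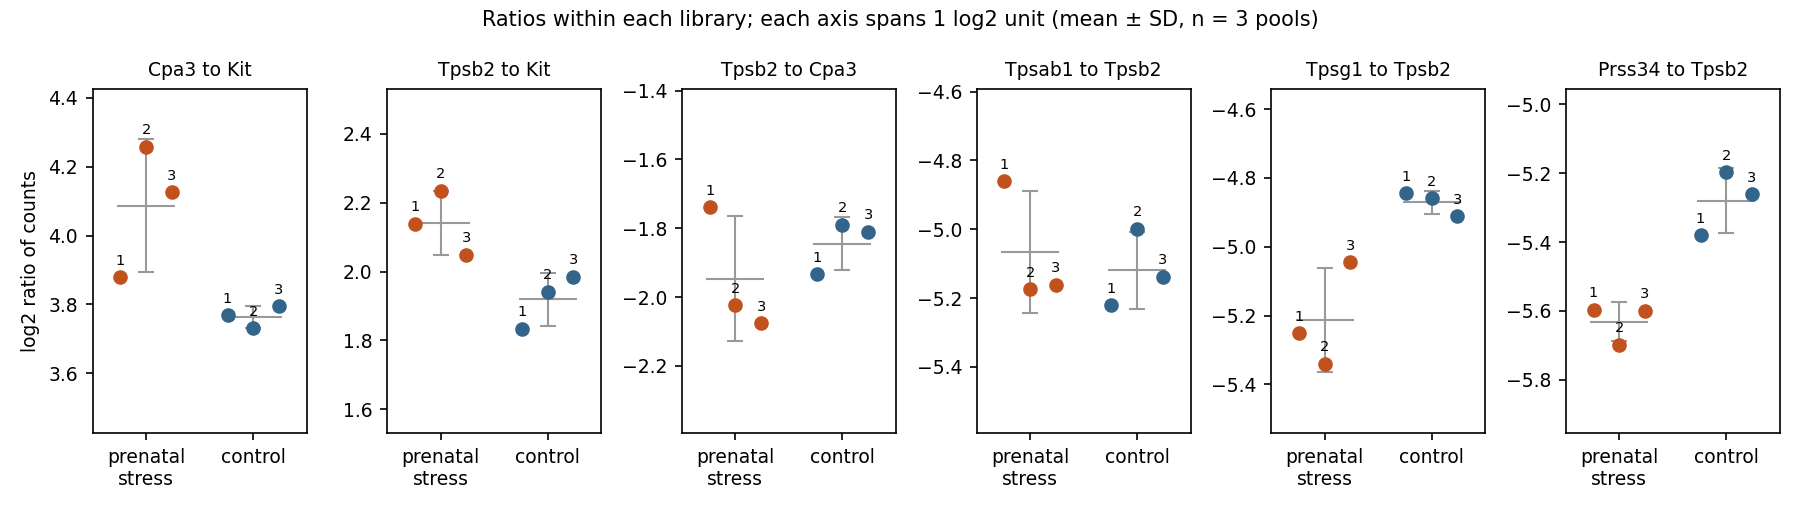
Log2 ratios of raw counts within a library for 6 gene pairs, with stress points left of control points and bars for mean ± SD of 3 pools. The ratios of Cpa3 and Tpsb2 to Kit are higher in all stress libraries, and Tpsb2 to Cpa3 and Tpsab1 to Tpsb2 overlap. The ratios of Tpsg1 and Prss34 to Tpsb2 were chosen after their values were seen.

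Genes linked to these proteases by family, storage, targets or regulation were read from 6 lists of 69 genes. The lists include 9 further tryptase-like genes and 14 other metallocarboxypeptidases. Of the 69 genes, 49 were tested. Of these, 9 rose and 1 fell, where 4.34% of all tested genes were called higher and 1.85% lower. With the macrophage covariate 5 of the list genes were called higher. Among the chymase locus genes, which encode the granule proteases of the other family, 4 of 10 rose and none fell, with a median log2 fold change of 0.35. Mcpt4, the chymase mMCP-4, rose by 1.04 ± 0.15 (edgeR adjusted p = 0.0095), with 3079, 4095 and 2831 CPM in stress libraries against 1770, 1367 and 1724 CPM in controls. Cma1, which encodes the mMCP-5 that is stored with the carboxypeptidase, rose by 0.40 ± 0.10 (edgeR adjusted p = 0.0463), a size near that of Cpa3 and Tpsb2. Ctsg, cathepsin G, and Mcpt8, a basophil protease in mice, rose by 0.46 ± 0.08 and 0.50 ± 0.09. Refitted with each library left out in turn, Mcpt4 was called in all 6 fits and Cma1, Ctsg and Mcpt8 in 1 or 2 of them. With the macrophage covariate Mcpt4, Ctsg and Mcpt8 kept their calls and Cma1 did not (edgeR adjusted p = 0.164). With the Y-to-Xist covariate Mcpt4 alone of these genes kept its call (edgeR adjusted p = 0.0295). Gzmb was at 0.16 ± 0.16 (edgeR adjusted p = 0.558).

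Of 16 storage and processing genes 4 rose and none fell, where 4.34% of all tested genes were called higher and 1.85% lower. The median log2 fold change of the 16 was 0.04. Srgn, the serglycin core to which tryptases and carboxypeptidase bind, rose by 0.43 ± 0.07, with 3478, 3560 and 3148 CPM in stress libraries against 2542, 2378 and 2641 CPM in controls (edgeR adjusted p = 0.0175). Ext1, which builds the heparan chain, rose by 0.48 ± 0.08, while the heparin sulfotransferase gene Ndst2 stood at 0.09 ± 0.11 (edgeR adjusted p = 0.660). Slc18a2, the vesicular monoamine transporter, and Cd63, a granule membrane protein, rose by 0.40 ± 0.08 and 0.34 ± 0.07. Ctsc, the dipeptidyl peptidase that removes activation peptides from serine proteases, differed by 0.05 ± 0.08 (edgeR adjusted p = 0.732), and Hdc, the histamine-forming enzyme, by 0.40 ± 0.10 (edgeR adjusted p = 0.0562). Without 1 library, Srgn was called in 2 of 6 fits, Ext1 in 3 and Cd63 in 1. Srgn and Cd63 lost their calls with the macrophage covariate (edgeR adjusted p = 0.0579 and 0.0853). They also lost them with the Y-to-Xist covariate (edgeR adjusted p = 0.0547 and 0.0604). Ext1 kept its call with each of these covariates (edgeR adjusted p = 0.0388 and 0.0497).

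Of 14 metallocarboxypeptidase genes besides Cpa3, 8 were tested and 0 passed in edgeR or DESeq2, while 1 had an unadjusted edgeR p under 0.05. At the background of 4.34% called higher, so few tested genes could give 0 calls, and nothing particular to this list is read from it. Their median log2 fold change was 0.44. The most abundant, Cpd, had 84.1, 87.6 and 101 CPM in stress libraries and 96.3, 103 and 98.9 CPM in controls (log2 fold change -0.13 ± 0.07), and without stress replicate 3 it was called lower (-0.21, edgeR adjusted p = 0.036). Of 9 inhibitors, receptors and substrates only 3 were tested, and 1 was called, where 4.34% of all tested genes were called higher. This was Lxn, which encodes latexin, an inhibitor of A-type carboxypeptidases. It had 303, 328 and 279 CPM in stress libraries against 237, 203 and 228 CPM in controls, a rise of 0.45 ± 0.08 (edgeR adjusted p = 0.0197). Lxn was called in 2 of 6 fits with 1 library left out (without stress replicate 3 and without control replicate 1), and lost its call with the Y-to-Xist covariate (edgeR adjusted p = 0.0585). F2rl1, the receptor PAR2 that tryptase cleaves, was near 0 throughout, at 0.0928 to 0.337 CPM in stress libraries and 0.0912 to 0.136 CPM in controls. The 9 further tryptase-like genes were close to absent, with summed levels of 0.288 to 0.668 CPM in stress libraries and 0.476 to 0.731 CPM in controls, and Prss21, Prss29 and Prss33 at 0.

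**Figure D5:**
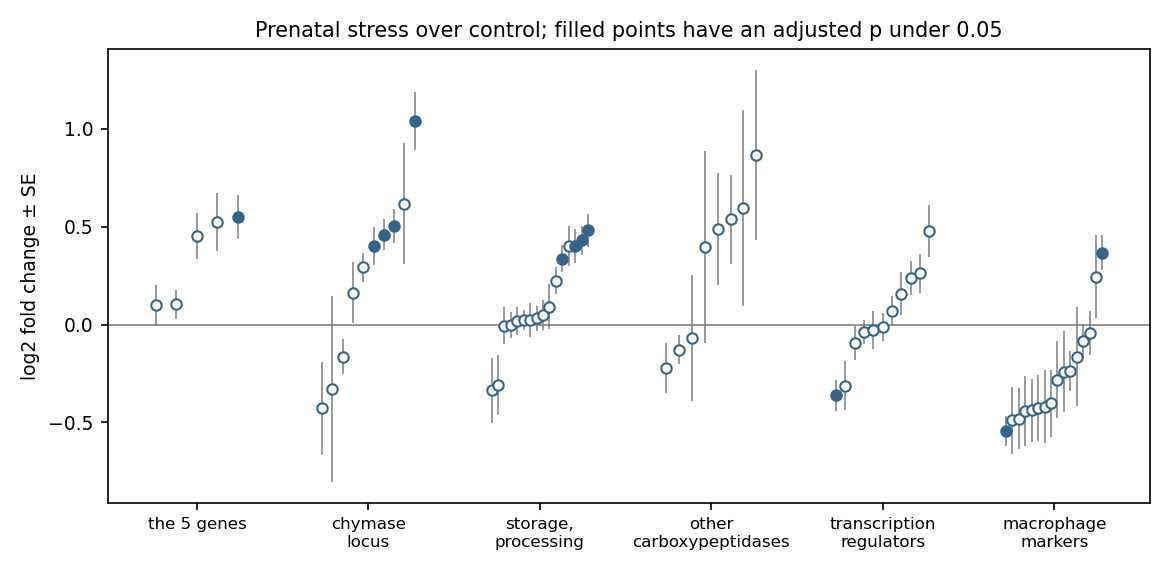
Log2 fold changes (prenatal stress over control) of the tested genes in the 5 proteases and 5 gene lists, a point per gene in order of size with a bar for ± SE, filled where the edgeR adjusted p was under 0.05. Filled points in the chymase and storage lists all lie above 0, the other carboxypeptidases have none, and the filled regulator, Lyl1, lies below 0. Most of the 16 macrophage markers lie below 0, with Cx3cr1 filled below and Cd68 filled above.

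Transcription factor genes linked to these proteases were mostly not called. Gata2 had 1805, 1704 and 1475 CPM in stress libraries and 1461, 1215 and 1481 CPM in controls, overlapping by stress replicate 3 (log2 fold change 0.26 ± 0.10, edgeR adjusted p = 0.155). Mitf differed by 0.16 ± 0.11 (edgeR adjusted p = 0.411) and Jun by 0.48 ± 0.13 (edgeR adjusted p = 0.0668). Lyl1, a haematopoietic basic helix-loop-helix factor gene, fell by 0.36 ± 0.08. Of the 11 it was the 1 gene called, where 4.34% of all tested genes were called higher and 1.85% lower. It was called in 1 of 6 fits with 1 library left out (without stress replicate 3), and lost its call with the macrophage covariate (-0.26, edgeR adjusted p = 0.115) and the Y-to-Xist covariate (edgeR adjusted p = 0.092).

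Most mast cell identity markers rose beside the proteases, and basophil markers were mixed. Of 12 mast cell identity genes 7 rose and none fell, where 4.34% of all tested genes were called higher and 1.85% lower. The median log2 fold change of the 12 was 0.42. Il1rl1 (ST2) rose by 0.45 ± 0.10 (edgeR adjusted p = 0.0312), while Kit was at 0.23 ± 0.10 (edgeR adjusted p = 0.187). With 1 library left out, Il1rl1 was called in 1 of 6 fits. Srgn and Slc18a2, called here, were also counted in the storage list, and Mcpt8 stands in both the chymase and basophil lists. Of 5 basophil markers, 3 rose (Mcpt8, Cd200r3 and Itga2), while Cebpa was at -0.46 ± 0.12 (edgeR adjusted p = 0.0594), with all stress libraries below all controls, and Ccr3 at -0.62 ± 0.35 (edgeR adjusted p = 0.315). Without 1 library, Mcpt8 was called in 2 of 6 fits and Cd200r3 in 1. The list summed to 653 to 813 CPM in stress libraries against 364 to 451 CPM in controls, nearly all of it Itga2 (314 to 414 CPM in stress libraries, 116 to 161 CPM in controls) and Cd200r3 (297 to 360 CPM in stress libraries, 209 to 253 CPM in controls). The basophil-associated member Prss34 overlapped between groups beside these sums. Whether a change in cell makeup took part in any of these differences was not tested.

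For each gene the most similar patterns over the 6 libraries were sought among 9685 other genes by Pearson's r of log2 CPM, as a description in which all genes share libraries and scaling. Those nearest Cpa3 were Sec62, a protein translocation factor of the endoplasmic reticulum (r = 0.9996), Chpt1, which makes phosphatidylcholine (0.9987), and Socs2, a cytokine signalling inhibitor (0.9985). Those nearest Tpsb2 were Acer3, a ceramidase (0.997), Ganc and Atl2. Car9 (0.991), Rabep1 and Cpne3 came nearest to Tpsab1, Pitpnm2 (0.994), Spryd3 and Epb41l1 to Tpsg1, and Bicral (0.990), Bbs9 and Tmcc3 to Prss34. Among the 5 genes themselves, Tpsb2 was closest to Tpsab1 (r = 0.93) and to Cpa3 (0.91), and Cpa3 and Prss34 were least alike (0.44).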

How the data were processed

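Polyadenylated RNA of sorted fetal skin mast cells was sequenced from stranded paired-end libraries, per the labels' protocols. The authors deposited raw read counts per gene symbol, 1 table per library; STAR 2.4, HTSeq 0.9.1, FastQC and the builds GRCm39 and mm10 are named in the submitters' processing notes, with no role given. Rows that name no gene were left out of library sizes; between 79.7% and 81.4% of tallied reads were assigned to genes. The 5 genes and the lists were chosen with earlier results of these data known.

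Counts were filtered with filterByExpr (minimum count 10), scaled by TMM and tested with the quasi-likelihood test of edgeR 4.0.16 (R 4.3.3), Benjamini-Hochberg adjusted over 16716 genes at 0.05, without covariates. CPM used TMM-scaled sizes, with a prior count of 2 on the log2 scale. The script was tested on simulated data. Per-kilobase levels used GENCODE M21 exon lengths (90.8% of symbols matched) for comparison between genes only. Shares and ratios were compared by exact two-sided permutation. Alternatives were other scaling factors and filters, DESeq2 1.42.0, limma-voom (limma 3.58.1), a replicate block, macrophage and Y-to-Xist covariates, and each library left out. Named genes were the members, sort markers, the 3 most abundant and up to 3 called genes of each list, the most abundant gene of each marker list and the nearest patterns; Slc18a2, Fcer1a, Mrgprb1, Ndst2, Ctsc, F2rl1, Itga2, Cd68, Cx3cr1, Trbc1, Cebpa, Ccr3, Prss21, Prss29 and Prss33 were named after their values were seen.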

Additional observations from a re-analysis of the deposited data

How the results depend on the processing

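Cpa3 kept its direction under every alternative run, though without 1 library it could hardly turn, as the groups did not overlap. Its edgeR call was lost with the replicate block (log2 fold change 0.55, adjusted p = 0.0845), with the macrophage covariate (0.41, adjusted p = 0.0923) and with the Y-to-Xist covariate (0.64, adjusted p = 0.0507). With 1 library left out, its log2 fold change ran from 0.44 to 0.61. Tpsb2 passed with upper-quartile factors (0.447, adjusted p = 0.0497), no filter (0.445), the stricter filter (0.448, adjusted p = 0.0491) and DESeq2 (0.457), and Tpsab1 with no filter (0.516) and DESeq2 (0.528); with 1 library left out they ran from 0.38 to 0.57 and from 0.33 to 0.68. Tpsg1 turned with library totals (-0.0084), and Prss34 with library totals (-0.0145) and the macrophage covariate (-0.029); with 1 library left out they ran from 0.05 to 0.15 and from 0.0075 to 0.20. Library totals moved the median of all genes to -0.12. The ratio differences to Kit turned to -0.26 for Cpa3 and -0.36 for Tpsb2 with the identity list in place of Kit; over fits without 1 library the ratios ran from 0.24 to 0.43 (Cpa3 to Kit), 0.17 to 0.27 (Tpsb2 to Kit), -0.21 to -0.037 (Tpsb2 to Cpa3), -0.049 to 0.11 (Tpsab1 to Tpsb2), -0.42 to -0.28 (Tpsg1 to Tpsb2) and -0.40 to -0.31 (Prss34 to Tpsb2), and the share difference from 0.853 to 1.33 percentage points. The cause of these moves was not tested.

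In edgeR 1035 genes were called (725 higher, 310 lower, 70.0% higher). Library totals called 2085 (1532 lower, 26.5% higher), no filter 1933 (1123 higher, 810 lower), DESeq2 1989 (1264 higher, 725 lower), the replicate block 622 (469 higher, 153 lower), the macrophage covariate 526 (385 higher, 141 lower) and the Y-to-Xist covariate 427 (341 higher, 86 lower); fits without 1 library called 196 to 2647 (168 to 1330 higher, 23 to 1317 lower). Of the list genes 9 rose in edgeR, 5 with the replicate block, 5 with the macrophage covariate, 2 with the Y-to-Xist covariate and 1 to 15 without 1 library. Among genes not called, signs turned with the macrophage covariate for Gzmb (-0.086), Edn1 (0.036), Mrc1 (0.12) and Col1a1 (-0.16), with library totals for Sfn (-0.093), without stress replicate 2 for Gzmb (-0.085), Edn1 (0.041) and Col1a1 (-0.15), without stress replicate 3 for Sfn (-0.11), without control replicate 1 for Slpi (-0.025) and Edn1 (0.017), and without control replicate 2 for Sfn (-0.12). Over all fits without 1 library, Sfn ran from -0.12 to 0.13, Col1a1 from -0.15 to 0.66, Gzmb from -0.085 to 0.27, Slpi from -0.025 to 0.27 and Edn1 from -0.40 to 0.041. Same-numbered libraries correlated at 0.096, -0.019 and 0.070 in their deviations from group means, so the replicate numbers were not taken to pair the pools, and not every library correlated best with its own number. The lowest genes, such as F2rl1, did not pass the filter on low counts and were not tested.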
